A study of Mus musculus with 12 samples.

Results

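A set of 9 leukocyte adhesion genes was followed across mated and unmated mouse endometrium, and 8 of them were measured. They are the endothelial selectins Sele and Selp, the endothelial ligands Icam1, Vcam1, Madcam1 and Pecam1, and, on the leukocyte side, the selectin ligand Selplg and the 2 chains of the integrin LFA-1, Itgal and Itgb2. A gene was represented by the array feature annotated to its symbol and to no other, with the highest mean signal taken where there were several. Each of the 8 had 1 such feature, among 21789 features with a single symbol and 35556 features in all. No feature carried Selp alone, and Selp is not analysed here.

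The study asked how seminal fluid with and without sperm changes endometrial gene expression. The intact group held CBAF1 females mated to intact BALB/c males, the vasectomised group CBAF1 females mated to vasectomised BALB/c males, whose seminal plasma carries no sperm, and both were collected 8 h after mating. By the study's account such an ejaculate also lacks secretions of the testes, epididymis and vas deferens. Sperm and these secretions cannot be told apart between the mated groups. The control group held unmated virgin CBAF1 females, labelled as estrus and, by the series design, collected on the pro-estrus day at 2000 h, so that mating and time of collection cannot be told apart in either comparison with controls. Scraped endometrium of 16 females per group was pooled by 4 into 4 arrays, giving 12 Affymetrix Mouse Gene 1.0 ST arrays, and each value is a log2 signal of 1 pool.

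Leukocytes leave blood through a sequence of contacts with the vessel wall. Selectins on activated endothelium catch glycosylated ligands such as PSGL-1, the product of Selplg, and the cell rolls. Chemokine signals then switch integrins such as LFA-1 into a binding state, in which they hold on to immunoglobulin-family ligands such as ICAM-1, before the cell passes between endothelial cells at junctions that contain PECAM-1.

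Of the 8 genes, Icam1 and Selplg were higher in mated endometrium, and the other 6 did not pass the test in any comparison. Icam1 was 3.42-fold higher after mating to intact males and 2.25-fold higher after mating to vasectomised males than in controls, and Selplg was 1.89-fold higher after mating to intact males. A gene was called at a fold change of at least 1.5 with an adjusted p of at most 0.05, in 1 limma fit over all 12 arrays with Benjamini-Hochberg adjustment over all 35556 features. By that rule 2 of 8 genes were higher and 0 lower in intact against control, where 1.95% of all features were called higher and 1.55% lower. In vasectomised against control 1 of 8 was higher and 0 lower, with 0.987% of features called higher and 0.439% lower. In intact against vasectomised 0 of 8 were called by limma, with 0.394% of features called higher and 0.402% lower, and 2 of 8, Icam1 and Selplg, had an unadjusted p under 0.05. The median log2 fold change of the 8 genes was 0.14 in intact against control and 0.04 in vasectomised against control, where the median over all features was 0.01 in both.

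Promoter sequence was available for 4 of the 9 genes, Sele, Selp, Icam1 and Madcam1, as 300 bases from 250 before to 50 after the annotated start, from RefSeq on build GRCm38.p6. The windows of Icam1, the member with the largest fold change, and of Sele, an inducible selectin that was not called, are shown for sequence context, with each match to GGNNNTTCC, a motif of NF-kB type, in capitals. The Icam1 window is chr9:21015690-21015989 and the Sele window chr1:164047984-164048283, both on the plus strand.
Icam1: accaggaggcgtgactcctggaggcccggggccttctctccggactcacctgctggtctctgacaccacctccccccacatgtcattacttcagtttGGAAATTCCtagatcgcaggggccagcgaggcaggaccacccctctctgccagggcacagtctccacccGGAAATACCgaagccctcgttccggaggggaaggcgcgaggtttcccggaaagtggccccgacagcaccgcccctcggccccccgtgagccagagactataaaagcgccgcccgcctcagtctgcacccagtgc
Sele: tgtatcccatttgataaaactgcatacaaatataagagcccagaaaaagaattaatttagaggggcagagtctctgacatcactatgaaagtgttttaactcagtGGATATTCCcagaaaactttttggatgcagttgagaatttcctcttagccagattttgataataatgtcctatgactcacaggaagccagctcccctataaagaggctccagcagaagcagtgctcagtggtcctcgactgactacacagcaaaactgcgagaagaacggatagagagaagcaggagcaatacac
Both strands were searched for GGNNNTTCC, for TTCNNNGAA, a motif of STAT type, and for GAGGAA, a motif of PU.1 type. The Icam1 window held 2 matches to GGNNNTTCC, from -153 to -145 on the plus strand and from -84 to -76 on the minus strand, and 1 match to TTCNNNGAA, from -42 to -34. The Sele window held 1 match to GGNNNTTCC, from -145 to -137, which overlapped its match to TTCNNNGAA from -140 to -132, and 1 minus-strand match to GAGGAA from -107 to -102. Madcam1 held 2 matches to GGNNNTTCC and Selp 1, and neither held the other motifs. Among 32851 RefSeq promoters of the same length, 18.5% held GGNNNTTCC, 8.3% TTCNNNGAA and 28.3% GAGGAA. These matches describe the letters of the windows only.

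On the endothelial side, Icam1 encodes the ligand of LFA-1 and Mac-1, is induced by inflammatory cytokines on endothelium, and is also made by epithelium and leukocytes. Its log2 signal was 9.71, 9.89, 9.60 and 10.12 on the intact arrays, 9.36, 8.67, 9.32 and 9.54 on the vasectomised arrays and 8.32, 8.46, 7.83 and 7.61 on the control arrays. All 4 intact arrays lay above all 4 vasectomised arrays, and all vasectomised arrays lay above all controls. The means were 9.83 ± 0.23 in intact, 9.22 ± 0.38 in vasectomised and 8.06 ± 0.40 in control (SD, n = 4 pools each). The log2 fold change was 1.77 (SE 0.21, 95% interval 1.31 to 2.24, limma adjusted p = 0.000225) in intact against control. It was 1.17 (SE 0.21, interval 0.70 to 1.63, limma adjusted p = 0.0104) in vasectomised against control. Icam1 thus stood highest in intact, then in vasectomised, then in control, but the step between the mated groups, 0.61 (interval 0.14 to 1.07), did not pass (limma adjusted p = 0.167). Complete separation alone was found for 8.05% of all features in intact above control, 7.06% in vasectomised above control and 6.62% in intact above vasectomised. In these pools of scraped endometrium more cells of a type and more RNA per cell cannot be told apart. With control replicates 1 and 2 as the only controls, a choice made after seeing the data, the vasectomised call on Icam1 was lost (0.83, limma adjusted p = 0.0657).

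**Figure D1:**
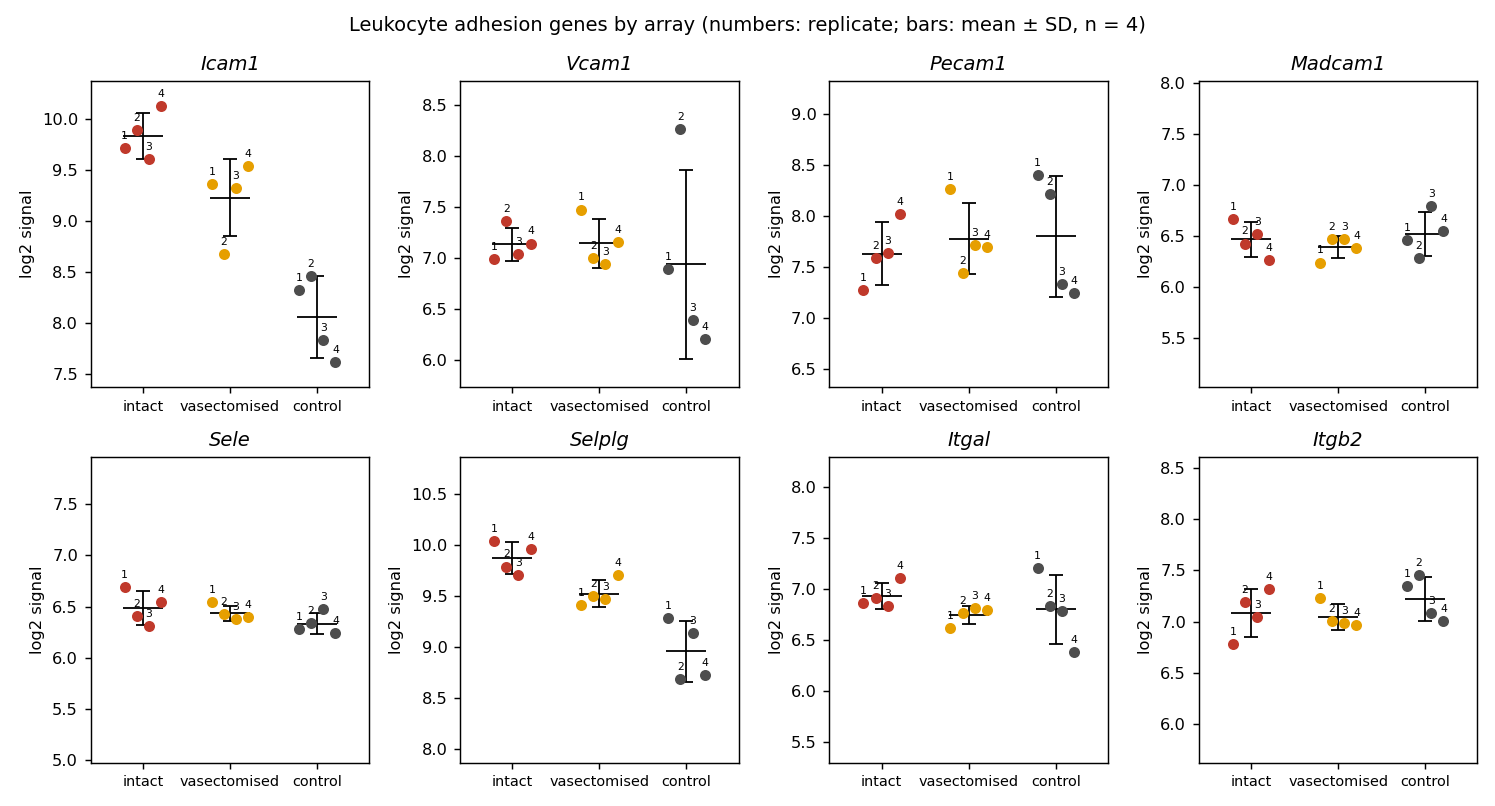
Log2 signal of the 8 measured genes on each of the 12 arrays, with a panel per gene, a point per pool of 4 females, and the mean and SD of each group. For Icam1 the intact arrays, 9.60 to 10.12, lie above the vasectomised arrays, 8.67 to 9.54, and these above the controls, 7.61 to 8.46, while for Pecam1, Vcam1 and Itgb2 the groups overlap.

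Vcam1 encodes the endothelial ligand of the integrin VLA-4, and had 1 control array far above the others. Its log2 signal was 6.99, 7.36, 7.04 and 7.14 on the intact arrays, 7.47, 7.00, 6.94 and 7.16 on the vasectomised arrays and 6.89, 8.26, 6.39 and 6.21 on the control arrays. The highest and the lowest of the 12 arrays were both controls, and both mated groups lay inside the range of the controls. The SD among controls, 0.93, was larger than among intact, 0.16, or vasectomised, 0.24, arrays. The log2 fold change was 0.20 (interval -0.55 to 0.94, limma adjusted p = 0.807) in intact against control and 0.21 (interval -0.54 to 0.95, limma adjusted p = 0.806) in vasectomised against control. Without control replicate 2 these values became 0.64 (limma adjusted p = 0.0338), a call, and 0.65 (limma adjusted p = 0.0552), which was not called.

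Pecam1, an adhesion molecule of endothelial junctions, platelets and many leukocytes, overlapped in all 3 groups. Its log2 signal was 7.27, 7.59, 7.63 and 8.02 in intact, 8.26, 7.44, 7.71 and 7.69 in vasectomised and 8.40, 8.21, 7.33 and 7.24 in control. Controls 1 and 2 were the high arrays of their group, and vasectomised replicate 1 that of the vasectomised group. The log2 fold change was -0.17 (interval -0.75 to 0.41, limma adjusted p = 0.782) in intact against control and -0.02 (interval -0.60 to 0.56, limma adjusted p = 0.977) in vasectomised against control. Both intervals reach past 1.5-fold on the lower side and stop short of it on the upper side.

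Sele encodes E-selectin, made by endothelium on activation, and Madcam1 the mucosal ligand of the integrin alpha4beta7. Sele was 6.70, 6.41, 6.31 and 6.54 in intact, 6.54, 6.43, 6.38 and 6.39 in vasectomised and 6.28, 6.34, 6.48 and 6.24 in control, with overlap among all groups. Its log2 fold change was 0.16 (interval -0.03 to 0.34, limma adjusted p = 0.321) in intact against control and 0.10 (interval -0.09 to 0.29, limma adjusted p = 0.582) in vasectomised against control, so that neither interval reached 1.5-fold. Madcam1 was 6.67, 6.43, 6.52 and 6.27 in intact, 6.24, 6.47, 6.47 and 6.39 in vasectomised and 6.46, 6.29, 6.80 and 6.56 in control. Its intervals, -0.30 to 0.19 in intact against control and -0.38 to 0.11 in vasectomised against control, did not reach 1.5-fold either (limma adjusted p = 0.838 and 0.588). Sele and Madcam1 were among the 5 of 8 genes whose mean signal lay below the median feature, 7.28, with Vcam1, Itgal and Itgb2, and the deposited values hold no call of detection.

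On the leukocyte side, Selplg encodes PSGL-1, the ligand that P-selectin and E-selectin catch on rolling leukocytes. Its log2 signal was 10.04, 9.79, 9.70 and 9.96 on the intact arrays, 9.41, 9.50, 9.47 and 9.71 on the vasectomised arrays and 9.28, 8.69, 9.14 and 8.72 on the control arrays. Both mated groups lay wholly above the controls, and the mated groups overlapped only where the highest vasectomised array, 9.71, met the lowest intact array, 9.70. The log2 fold change was 0.92 (SE 0.13, interval 0.62 to 1.21, limma adjusted p = 0.000905) in intact against control. In vasectomised against control it was 0.56 (SE 0.13, interval 0.27 to 0.85), which is 1.48-fold, with a limma adjusted p of 0.0358, so that the p passed and the fold missed its threshold. Without control replicate 1 or control replicate 3 the same comparison was called, at 0.67 (limma adjusted p = 0.0139) and 0.62 (limma adjusted p = 0.0372). Intact was 0.35 above vasectomised (interval 0.06 to 0.64), which did not pass (limma adjusted p = 0.199).

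Itgal and Itgb2 encode the alpha and beta chains of LFA-1, the leukocyte integrin that binds ICAM-1, and Itgb2 is also the beta chain of Mac-1. Itgal was 6.86, 6.91, 6.83 and 7.11 in intact, 6.61, 6.76, 6.81 and 6.79 in vasectomised and 7.20, 6.83, 6.78 and 6.38 in control. Intact arrays all lay above vasectomised arrays, by 0.18 on average (interval -0.11 to 0.48, limma adjusted p = 0.538), and the controls spanned both. Itgb2 was 6.78, 7.19, 7.04 and 7.32 in intact, 7.23, 7.00, 6.98 and 6.96 in vasectomised and 7.35, 7.45, 7.08 and 7.01 in control. Its log2 fold change was -0.14 (interval -0.41 to 0.14, limma adjusted p = 0.595) in intact against control and -0.18 (interval -0.45 to 0.10, limma adjusted p = 0.507) in vasectomised against control. Against control, Itgal differed by 0.13 in intact (interval -0.17 to 0.43, limma adjusted p = 0.663) and by -0.06 in vasectomised (interval -0.36 to 0.24, limma adjusted p = 0.874). None of these 4 intervals reached 1.5-fold.

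**Figure D2:**
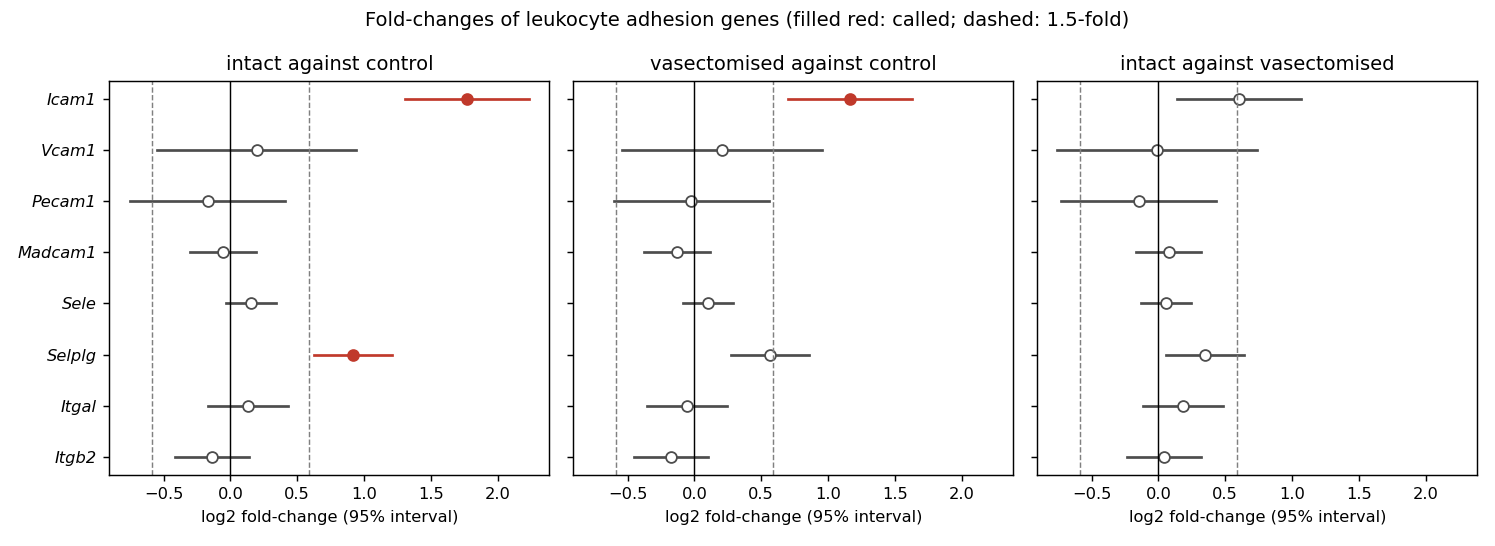
Log2 fold change of the 8 genes in intact against control, vasectomised against control and intact against vasectomised, with bars for the 95% interval of the limma fit and lines at 0 and at 1.5-fold. Icam1 in both comparisons with control, at 1.77 and 1.17, and Selplg in intact against control, at 0.92, stand past the fold line with an adjusted p at or under 0.05, and the interval of Vcam1 is the widest.

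Array medians ran over 7.25 to 7.32 and the lowest correlation between arrays of a group was 0.983 in control, 0.991 in intact and 0.992 in vasectomised. The controls fell into unlike pairs for several of the 8 genes. Control replicates 1 and 2 were both above 3 and 4 for 5 of 8 genes, Vcam1, Pecam1, Icam1, Itgal and Itgb2, against 19.9% of all features. The differences of the pair means were 1.28, 1.02, 0.67, 0.43 and 0.36 in that order. They were both below 3 and 4 for 1 of 8 genes, Madcam1, and for 10173 of all 35556 features. Controls 1 and 2 were both above in 12 of 13 blood endothelium markers, 8 of 10 pan-leukocyte markers and 8 of 8 stromal markers. The sources give no batch for these arrays, and the part of tissue composition in the control spread was not tested.

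Marker genes of other cell types were read on the same arrays. Mean log2 signal of 13 blood endothelium markers was 7.52 to 7.98 in intact, 7.64 to 8.22 in vasectomised and 7.51 to 8.31 in control. Flt1, a VEGF receptor, was the single gene called in intact against control, higher by 1.07 (limma adjusted p = 2.09e-05). In that comparison the list median was -0.24, and Egfl7 and Eng, both lower, had an unadjusted limma p under 0.05. The 10 pan-leukocyte markers ranged over 8.07 to 8.59 in intact, 8.16 to 8.53 in vasectomised and 8.07 to 8.75 in control, and 0 of 10 were called by limma in any comparison, with 2, 2 and 1 at an unadjusted p under 0.05 in intact against control, vasectomised against control and intact against vasectomised. Of 15 measured neutrophil markers, 8 were higher by limma in intact than in control and 6 in intact than in vasectomised. The count of 6 became 3 without intact replicate 4, without vasectomised replicate 3 and in a fit without moderated variances. In vasectomised against control 0 of 15 neutrophil markers were called by limma, 0 had an unadjusted p under 0.05, and 1 was called without control replicate 2. Cxcr2, a chemokine receptor of neutrophils, had the largest log2 fold change of that list, 2.25 in intact against control (limma adjusted p = 0.000162). Ly6g, a defining surface marker, was not called (-0.44, limma adjusted p = 0.330). The Ly6g feature read 9.32 to 10.67 in controls, where Cxcr2 read 4.89 to 5.16, and what it measures there was not tested. The mean of the neutrophil list ran over 6.76 to 7.23 in intact, 6.30 to 6.54 in vasectomised and 6.22 to 6.31 in control. Its part in the Icam1 and Selplg levels was not tested. The mean of the epithelial markers, which reached 12.09 in intact, 12.05 in vasectomised and 12.10 in control, overlapped in all groups. All 8 epithelial and all 8 stromal markers had a feature with their symbol alone, which is a property of the array and no check of the tissue. The log2 fold changes of all 8 stromal markers ran over -0.97 to -0.13 in intact against control, with a median of -0.61. Of these, 6 of 8 had an unadjusted limma p under 0.05. By limma 2 of 8 stromal markers, Col1a1 and Lum, were called lower in intact than in control, with the stromal mean at 8.83 to 9.57 in intact, 9.26 to 9.85 in vasectomised and 9.41 to 10.28 in control. That stromal count was 4 without control replicate 4. It was 1 without control replicate 1 or 2, without any 1 of the 4 intact replicates, and without vasectomised replicate 3 or 4. No gene of the macrophage, T and NK cell, B and plasma cell, lymphatic endothelium, epithelium or smooth muscle lists was called in any comparison by limma, and of their 49 measured genes 11, 5 and 8 had an unadjusted p under 0.05 in intact against control, vasectomised against control and intact against vasectomised. With 1 array left out, 1 macrophage marker was called lower in intact than in control without control replicate 3 or 4 or vasectomised replicate 1, and 1 pan-leukocyte marker without control replicate 3 or intact replicate 2 or 4. Among 6 measured platelet markers, Ppbp was higher in intact than in control, at 1.25 (limma adjusted p = 0.0176). Ppbp is the chemokine gene that the study lists as Cxcl7. Itgb3 was lower by limma in both mated groups, at -0.84 in intact (adjusted p = 0.00951) and -0.79 in vasectomised (adjusted p = 0.0281). The other 4 were not called in intact against control. In vasectomised against control 0 platelet markers were lower without control replicate 1 or 2 or vasectomised replicate 2, 3 or 4.

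**Figure D3:**
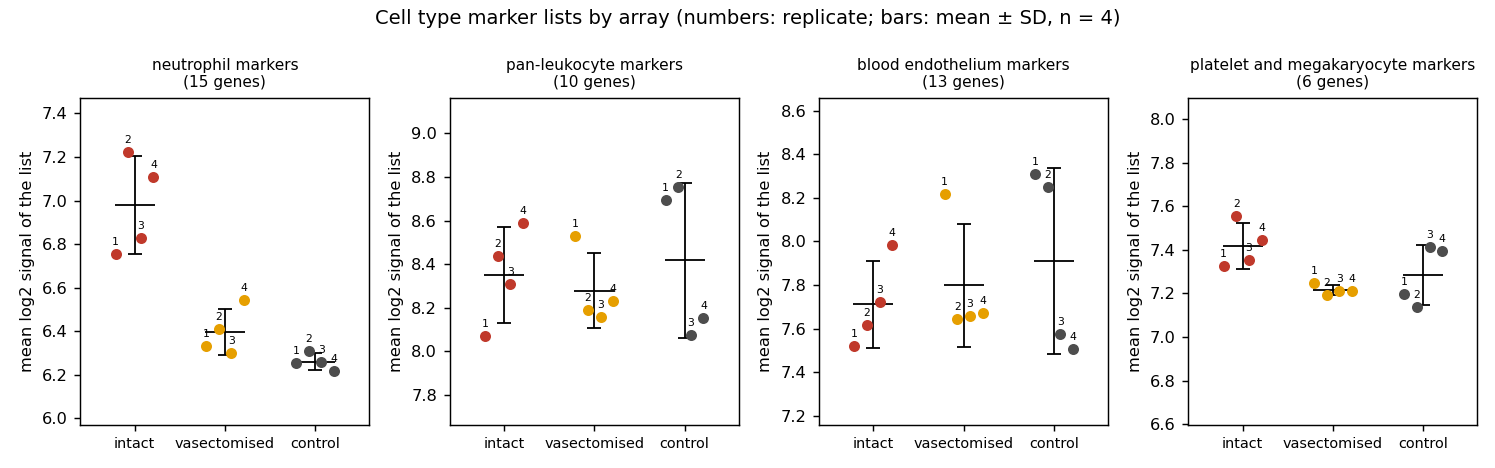
Mean log2 signal of the neutrophil, pan-leukocyte, blood endothelium and platelet marker lists on each of the 12 arrays, with a numbered point per replicate and bars for group mean and SD. The blood endothelium list is high on controls 1 and 2 and on vasectomised replicate 1, while the neutrophil list is highest on the intact arrays, at 6.76 to 7.23, with the controls at 6.22 to 6.31.

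Set against a marker list on the same array, Icam1 separated the mated groups from the controls and Pecam1 did not. The difference between Icam1 and the mean of the blood endothelium markers was 2.12 ± 0.17 in intact, 1.43 ± 0.40 in vasectomised and 0.14 ± 0.11 in control (SD, n = 4), and every mated array lay above every control. Pecam1 minus the same list was -0.08 ± 0.12 in intact, -0.02 ± 0.12 in vasectomised and -0.11 ± 0.17 in control, with overlap. The highest and the lowest Pecam1 array of a group were those of the list in 3 of 3 groups, and likewise for the stromal and macrophage lists. Selplg minus the pan-leukocyte markers was 1.52 ± 0.30 in intact, above all controls at 0.54 ± 0.46, and 1.24 ± 0.25 in vasectomised, which overlapped them. Itgb2 minus that list was -1.27 ± 0.02 in intact, -1.23 ± 0.06 in vasectomised and -1.20 ± 0.16 in control. Sele, Vcam1 and Madcam1 minus the blood endothelium list, and Itgal minus the pan-leukocyte list, overlapped the controls in both mated groups. Icam1 had separated before the subtraction and the list means overlapped among groups, so that the difference is no further support. The 0 of this scale is arbitrary, and the setting was chosen after seeing the data.

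**Figure D4:**
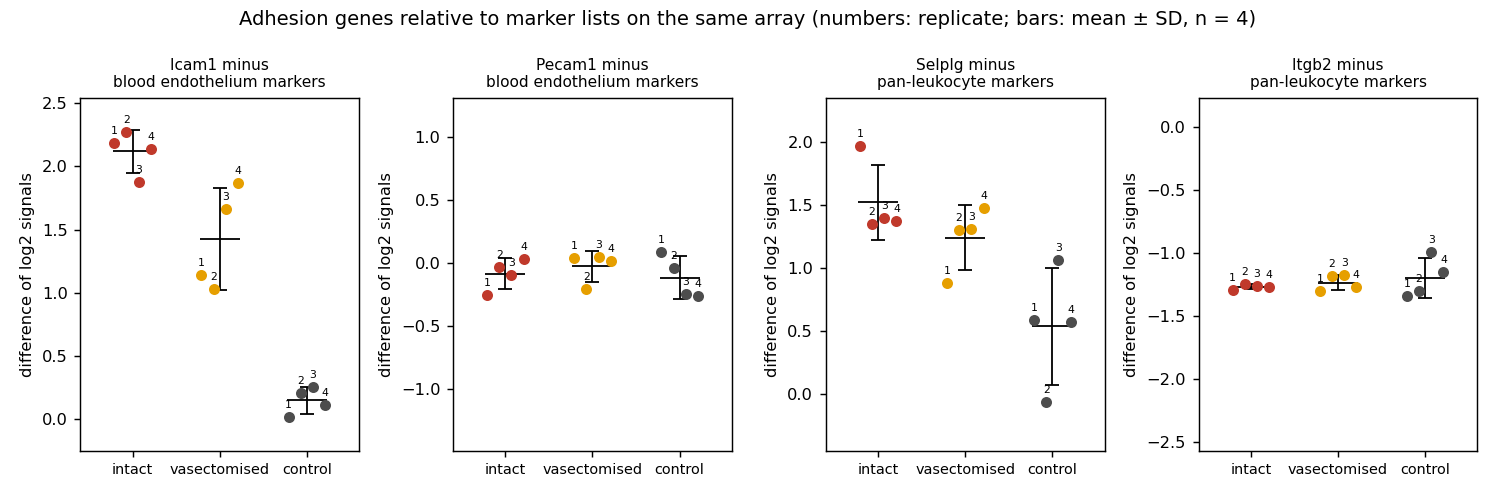
Log2 signal of Icam1 and Pecam1 minus the mean log2 signal of the blood endothelium markers, and of Selplg and Itgb2 minus that of the pan-leukocyte markers, on the same array, with a numbered point per replicate and bars for group mean and SD. Icam1 lies at 2.12, 1.43 and 0.14 on average in intact, vasectomised and control, and Pecam1 at -0.08, -0.02 and -0.11.

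Genes around these 8 in the adhesion sequence were read as lists in the same fit. In intact against control that fit called 1.95% of all features higher and 1.55% lower. In vasectomised against control the shares were 0.987% and 0.439%. Of 15 other endothelial adhesion and junction genes, 1 was higher in intact than in control and 1 lower, with a list median of -0.03 on the log2 scale. Cx3cl1, a membrane-bound chemokine that also tethers leukocytes, was higher by 0.75 (SE 0.07, limma adjusted p = 3.46e-05) in intact. It stood at 10.29, 10.46, 10.43 and 10.56 in intact, 10.12, 10.06, 10.13 and 10.21 in vasectomised and 9.60, 9.78, 9.73 and 9.63 in control, in 3 groups that did not overlap. Vasectomised was 0.44 above control (limma adjusted p = 0.00491) and intact 0.31 above vasectomised (limma adjusted p = 0.0442), both under the fold threshold. Cd34, a sialomucin of endothelium and stromal progenitors, was lower by limma in intact than in control, at -1.43 (SE 0.26, adjusted p = 0.00408), against -0.96 in vasectomised (adjusted p = 0.0640). Emcn, an endothelial sialomucin, stood at -0.64 (adjusted p = 0.419), and Glycam1, an L-selectin ligand, at 0.37 (adjusted p = 0.0557), in intact against control by limma.

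Of 11 enzymes that build the glycans of selectin ligands, 1 was called in intact against control. Fut4, a fucosyltransferase, was higher in intact by 0.59 (SE 0.08, limma adjusted p = 0.000404), at 7.86, 7.73, 7.68 and 7.86 in intact and 7.20, 7.05, 7.16 and 7.36 in control. That call sits at the 1.5-fold threshold and was lost without control replicate 2 or 3 or intact replicate 1 or 4. Gcnt1, which builds the branched core of these glycans, differed by 0.51 in intact (limma adjusted p = 0.000483) and 0.38 in vasectomised (limma adjusted p = 0.00867), both under the fold threshold. The list median was 0.15 in intact against control and 0.05 in vasectomised against control.

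Among 13 measured of 14 other leukocyte integrins and adhesion receptors, 2 were higher in intact than in control and 1 in vasectomised than in control. Cd47, a widely made ligand of SIRP-alpha, was higher by limma by 0.86 (SE 0.09, adjusted p = 5.32e-05) in intact and 0.62 (SE 0.09, adjusted p = 0.00219) in vasectomised. Its signal was 12.11, 12.04, 12.02 and 12.04 in intact, 11.67, 11.78, 11.85 and 11.94 in vasectomised and 11.36, 11.30, 11.07 and 11.03 in control, and no group overlapped another. Cd47 had 2 features with its symbol alone, and only the feature with the higher mean signal is given. The vasectomised count of this list was 0 without control replicate 3 or 4 or vasectomised replicate 4. Pilra, a myeloid inhibitory receptor, was higher by 0.67 in intact against control (SE 0.16, limma adjusted p = 0.0221), and the count in intact against control was 1 without control replicate 2 or 4 or intact replicate 2 or 4, and in a fit without moderated variances. Itgam, the alpha chain of Mac-1, was not called, at 0.36 in intact (limma adjusted p = 0.101) and 0.39 in vasectomised (limma adjusted p = 0.116). Cd44, a receptor of hyaluronan, was not called either, at -0.26 in intact (limma adjusted p = 0.572) and -0.69 in vasectomised (limma adjusted p = 0.120).

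Of 11 measured of 12 integrin activation genes 1 was called lower in intact against control. Of 6 measured of 8 genes listed as other Icam and junction genes of epithelium 0 were called by limma in that comparison, with 2 at an unadjusted p under 0.05. The 6 were Icam4, Icam5, Cxadr, Cd55, Ceacam1 and Cd24a, and not all of them are Icam or junction genes. Of this list of other Icam and junction genes, which is not the epithelial marker list, 1 was called higher without control replicate 1 or intact replicate 3 or 4. Rassf5, which links the GTPase Rap1 to LFA-1, was lower by limma in intact, at -0.78 (SE 0.12, adjusted p = 0.00113), against -0.42 in vasectomised (adjusted p = 0.0728). Its signal was 7.06, 7.36, 7.46 and 7.48 in intact, 7.84, 7.47, 7.92 and 7.57 in vasectomised and 8.21, 8.02, 8.23 and 8.02 in control. Fgr, a myeloid kinase of integrin signalling, was 0.31 higher (adjusted p = 0.0280) and Rap1a 0.26 lower on the log2 scale, at -0.26 (adjusted p = 0.0274), in intact by limma, with both under the fold threshold. Cd55, a complement regulator of epithelium, differed by 0.57 in intact against control (limma adjusted p = 0.0123), also under it.

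**Figure D5:**
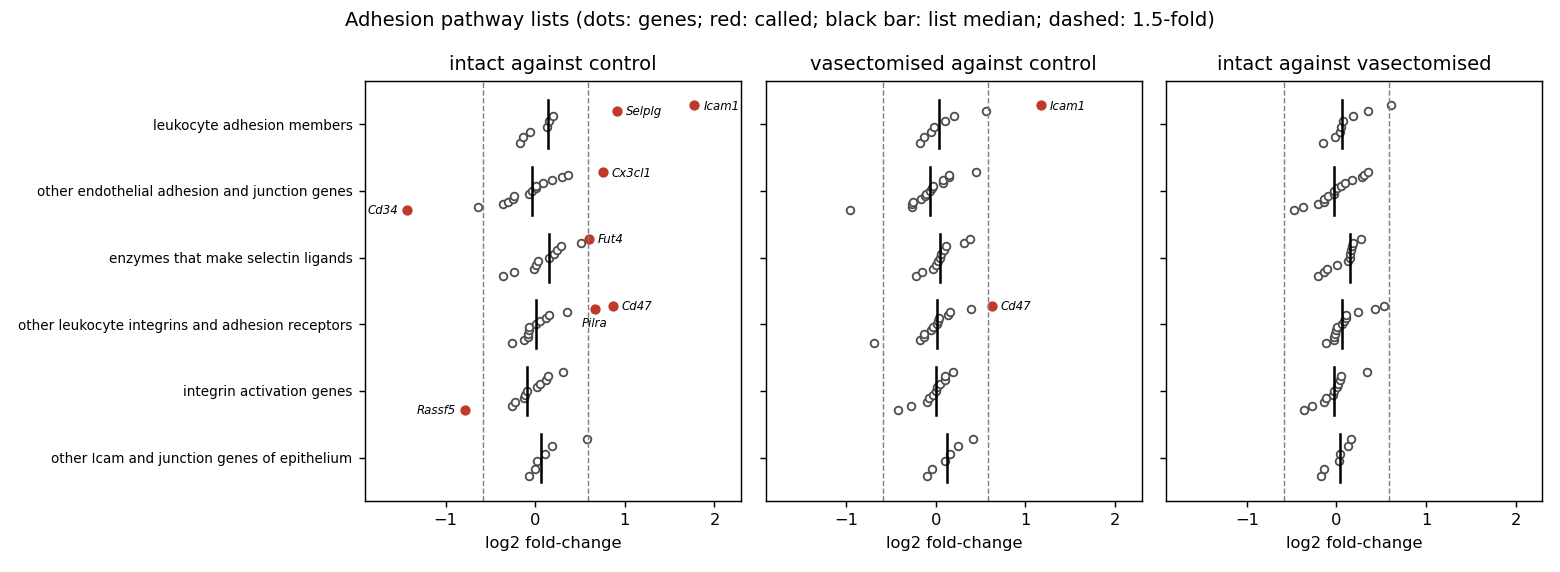
Log2 fold change of each gene of the pathway lists in each of the 3 comparisons, with the followed genes at the top, a row per list, a point per gene, red for genes called, a black bar at the list median and dashed lines at 1.5-fold. Outside the top row, the genes called in intact against control are Cx3cl1, Fut4, Cd47 and Pilra to the right and Cd34 and Rassf5 to the left of 0.

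The genes whose pattern over the 12 arrays was nearest to Icam1, by root mean square difference of log2 values centred on each gene's mean, were Gbp5 (0.159), Fyb (0.176) and Gsap (0.198), where Icam1 itself had an SD of 0.83 over the arrays. Gbp5 differed by 1.59 in intact against control and by 1.00 in vasectomised against control, Fyb by 1.46 and 0.98, and Gsap by 1.62 and 1.31. The nearest to Selplg, with an SD of 0.44, were Tlr2 (0.119), Unc93b1 (0.130) and Adgrl2 (0.133). Tlr2 differed by 0.92 in intact and 0.61 in vasectomised against control, Unc93b1 by 0.79 and 0.44, and Adgrl2 by 0.96 and 0.51. These genes were chosen for likeness, and their values are a description.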

How the data were processed

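The authors labelled 300 ng of pooled endometrial RNA per array for hybridisation and deposited log2 signals per feature. They were made with Partek software by RMA background subtraction, adjustment for GC content and averaging of probes. The version of Partek was not given in the sources used here. All 12 columns were used as deposited. Genes were named from the platform annotation, in which 21789 features have 1 symbol, 1621 several and 12146 none. Of 176 genes in the member, pathway and marker lists, 162 were matched by symbol. Groups were compared in 1 fit with limma 3.58.1 in R 4.3.3, with Benjamini-Hochberg adjustment over all 35556 features, a fold change of at least 1.5 and adjusted p of at most 0.05. Calculations used Python 3.11.15 and figures matplotlib 3.10.9. The scripts were tested on simulated data. The genes, lists and tests were chosen with earlier results of these data known. All members were named, with the 3 nearest genes of each called member. Other genes were drawn mainly from up to 4 of each list with the largest change in intact against control and from list genes called between the mated groups. Not all of these are given, and of marker lists only those that bear on a member. Alternatives covered normalization, variance moderation, array weights, a replicate block, low-signal features, thresholds and each array left out. Replicates are independent pools, and the number of arrays limits the precision.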

Additional observations from a re-analysis of the deposited data

Results flagged for a closer look

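Itgb2 on vasectomised replicate 1, at 7.23, stood apart from the other 3 vasectomised arrays, the nearest of which was 7.00. The gap to that nearest array was 0.84 of the group's whole range, past Dixon's critical value for 4 samples. The same array was the highest of its group for Pecam1, at 8.26, for the blood endothelium markers, at 8.22, and for the pan-leukocyte markers, at 8.53. Of 24 groups checked 1 stood out in this way, where chance gives about 1 in 20.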

How the results depend on the processing

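Of 537 recomputed values of the members' 24 log2 fold changes, 500 kept their direction and their side of the threshold. Some settings, such as the fit without moderated variances and the replicate block, leave each log2 fold change unchanged by design. So does leaving out an array of the group not compared, and the count is no measure of stability. In intact against control 2 members were higher, 1 with the threshold raised to 2-fold, and 2 to 3 with 1 array left out. In vasectomised against control 1 was higher, 2 with the threshold at 1.4-fold or without one, 1 to 2 with 1 array left out, and 0 with controls 1 and 2 only or 3 with controls 3 and 4 only, splits chosen after seeing the data. With controls 3 and 4 only, Vcam1 was called at 0.83 (limma adjusted p = 0.00626) in intact and 0.85 (limma adjusted p = 0.0112) in vasectomised. Other log2 fold changes turned sign without a call. With controls 1 and 2 only, intact against control gave -0.44 for Vcam1, -0.089 for Itgal and 0.10 for Madcam1, and vasectomised against control -0.43 for Vcam1 and 0.020 for Madcam1. With controls 3 and 4 only, intact against control gave 0.34 for Pecam1 and 0.041 for Itgb2, and vasectomised against control 0.49 for Pecam1, 0.16 for Itgal and 0.0021 for Itgb2. Vcam1 in intact against vasectomised was 0.013 after quantile normalization, 0.015 after median centring and 0.031 with array weights. With 1 array left out, intact against control ran over -0.046 to 0.64 for Vcam1, -0.36 to 0.029 for Pecam1, -0.011 to 0.26 for Itgal and -0.14 to 0.036 for Madcam1. Vasectomised against control ran over -0.035 to 0.65 for Vcam1, -0.21 to 0.18 for Pecam1 and -0.20 to 0.079 for Itgal. Intact against vasectomised ran over -0.015 to 0.11 for Sele, -0.087 to 0.10 for Vcam1, -0.28 to 0.014 for Pecam1 and -0.041 to 0.14 for Itgb2. The cause was not tested. Same-numbered arrays did not deviate together (correlations -0.255 to 0.205), and with the number as a replicate block 2, 1 and 0 members were higher in the 3 comparisons. The limma adjusted p of Icam1 ranged over 0.000117 to 0.00273 in intact and 0.00423 to 0.0657 in vasectomised against control over its alternatives, and that of Selplg over 0.000459 to 0.00657 and 0.0139 to 0.103. Leaving out low-signal features kept 3 of 8 members, so the other 5 had no value, and no member had several features to average. Comparison of protein sequences was not run.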
